A study of Homo sapiens with 6 samples.

Results

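The genes described here are 10 members of the NF-κB system: the subunit genes NFKB1, NFKB2, RELB and REL, the inhibitor genes NFKBIA and TNFAIP3, the signalling genes BIRC3 and TRAF1, and the cell surface genes ICAM1 and TNFRSF9. They were chosen by name, but with earlier results of these data known. All 10 were found among the 58884 gene identifiers of the deposited table. Expression was measured by RNA sequencing of total RNA from 3 human thyroid cancer cell lines. BHT-101 (established from an anaplastic thyroid carcinoma) and FTC-133 (from a follicular thyroid carcinoma) received either siRNA to CRABP2, a short RNA that triggers breakdown of the matching message (siCRABP2), or a control siRNA (siControl). 8505C (from an anaplastic thyroid carcinoma) was transfected with a CRABP2 expression vector or with the empty vector. There was 1 library in each of the 6 conditions. The CRABP2 message, which encodes a carrier of retinoic acid, was 11.4 FPKM with siCRABP2 and 27.3 FPKM with siControl in BHT-101 and 0.170 and 8.94 FPKM with siCRABP2 and siControl in FTC-133. It was 38.0 FPKM with the CRABP2 vector and 0.607 FPKM with the empty vector in 8505C, so each library went the way of its label. FPKM is the number of fragments per kilobase of exon, scaled to the depth of the library. The sources used here do not give the siRNA sequence, the time after transfection or whether the 8505C cultures were clones or pools.

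NF-κB is a family of dimeric transcription factors built from the products of NFKB1, NFKB2, RELA, RELB and REL. Inhibitor proteins of the IκB family, such as the product of NFKBIA, hold the dimers in the cytoplasm until the IKK kinase complex marks the inhibitor for destruction. A second, slower branch processes the NFKB2 precursor and releases RELB dimers. The dimers bind κB sites in DNA. Many of the genes they switch on encode parts of the system itself, including NFKBIA and TNFAIP3, which shut the signal off again. Messages of such feedback genes are therefore commonly read as a trace of recent NF-κB activity, although a message level does not measure it.

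Promoter windows from RefSeq, reaching from 250 bases before to 50 bases after each listed transcription start (GRCh38.p14), were searched on both strands for the κB consensus of 10 bases. Windows were listed for 9 of the 10 genes. RELB was not among them. The consensus was found in a window of 7 of these 9 genes (NFKB1, NFKB2, REL, NFKBIA, TNFAIP3, BIRC3 and TNFRSF9), against 7.09% of the 27305 genes with a window. These 9 genes had 14 windows, and 5.91% of all 35116 windows held the consensus. The genes were chosen as members of the NF-κB system, so this share describes the choice and tests nothing. The letters of the consensus were absent from the windows listed for TRAF1 and ICAM1, which says nothing of sites elsewhere. The stretches below are shown because they carry the sequence shared by genes of different function in the set. NFKB2 has matches in another window too, which is not shown. Capitals mark every base covered by a consensus match on either strand, and each stretch reads 5′ to 3′ along the gene's own strand.
NFKB1, chr4:102501275-102501354, plus strand: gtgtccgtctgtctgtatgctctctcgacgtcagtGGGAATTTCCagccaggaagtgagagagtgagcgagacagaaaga
NFKB2, chr10:102394436-102394544, plus strand: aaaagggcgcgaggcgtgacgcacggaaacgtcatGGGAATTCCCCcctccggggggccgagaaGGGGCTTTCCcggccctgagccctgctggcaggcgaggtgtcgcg
REL, chr2:60881492-60881572, plus strand: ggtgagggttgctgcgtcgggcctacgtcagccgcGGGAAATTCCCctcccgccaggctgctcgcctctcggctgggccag
NFKBIA, chr14:35404786-35404865, minus strand: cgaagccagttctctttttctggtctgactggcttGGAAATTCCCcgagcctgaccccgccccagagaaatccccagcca
TNFAIP3, chr6:137867157-137867248, plus strand: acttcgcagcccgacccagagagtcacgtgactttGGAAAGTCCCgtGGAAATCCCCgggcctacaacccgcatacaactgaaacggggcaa
BIRC3, chr11:102317250-102317393, plus strand: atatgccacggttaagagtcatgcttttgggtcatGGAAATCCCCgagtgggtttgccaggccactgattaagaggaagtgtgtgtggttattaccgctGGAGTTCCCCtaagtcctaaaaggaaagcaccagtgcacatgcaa
TNFRSF9, chr1:7940868-7940948, minus strand: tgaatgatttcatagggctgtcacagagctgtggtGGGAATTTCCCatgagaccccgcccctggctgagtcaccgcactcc

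The matches shown begin between 47 and 199 bases before the start. The REL match begins 47 bases before it, the NFKB1 match 49 bases, the TNFRSF9 match 74 bases and the NFKBIA match 81 bases. TNFAIP3 has a pair of matches 67 and 55 bases before its start, NFKB2 a pair at 107 and 78 bases, and BIRC3 a pair at 199 and 135 bases. A match describes the letters of the reference sequence, and no binding was measured here.

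Each library held between 22084110 and 27958623 reads, worked out from the steps between its FPKM values. Nothing in the labels says that cultures of a line were grown separately, and with 1 library per condition a difference inside a line cannot be set against replicates. Ratios are therefore given with 95% exact (Clopper-Pearson) intervals on the recovered reads. These intervals hold the error of counting alone and compare a pair of libraries, not conditions, and reads are not independent molecules. In RNA from whole cultures, fewer cells making a message and less message per cell cannot be told apart. All 6 epithelial markers were at 1 FPKM or more in BHT-101, 4 of 6 in FTC-133 and 3 of 6 in 8505C. Their sum was 342.6 FPKM with the CRABP2 vector and 205.2 FPKM with the empty vector in 8505C, 819 FPKM with siCRABP2 and 786 FPKM with siControl in BHT-101, and 109.96 and 98.6 FPKM with siCRABP2 and siControl in FTC-133. In 8505C the 3 measured epithelial markers (KRT8, KRT18 and KRT7) were all above 0, with a median difference of 0.72 on log2(FPKM + 1). Of 7 thyroid follicular markers, PAX8 and NKX2-1 passed 1 FPKM in FTC-133, NKX2-1 alone did so in 8505C, and none did so in BHT-101. The summed level of 10 leukocyte markers was 4.20 FPKM with siCRABP2 and 5.90 FPKM with siControl in BHT-101, 0.908 and 1.37 FPKM with siCRABP2 and siControl in FTC-133, and 13.3 FPKM with the CRABP2 vector and 16.7 FPKM with the empty vector in 8505C. CD14 was at 1 FPKM or more in both 8505C and both BHT-101 libraries, CD79A in BHT-101 siControl, and no other marker in any library. The defining leukocyte gene PTPRC was at 0 FPKM in both BHT-101 libraries and at 0.0241 FPKM or less in the other libraries. At most 1 of 5 endothelial markers reached 1 FPKM in a library, and their sum ran from 0.930 to 3.24 FPKM. The part of such messages in the results was not tested.

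**Figure D1:**
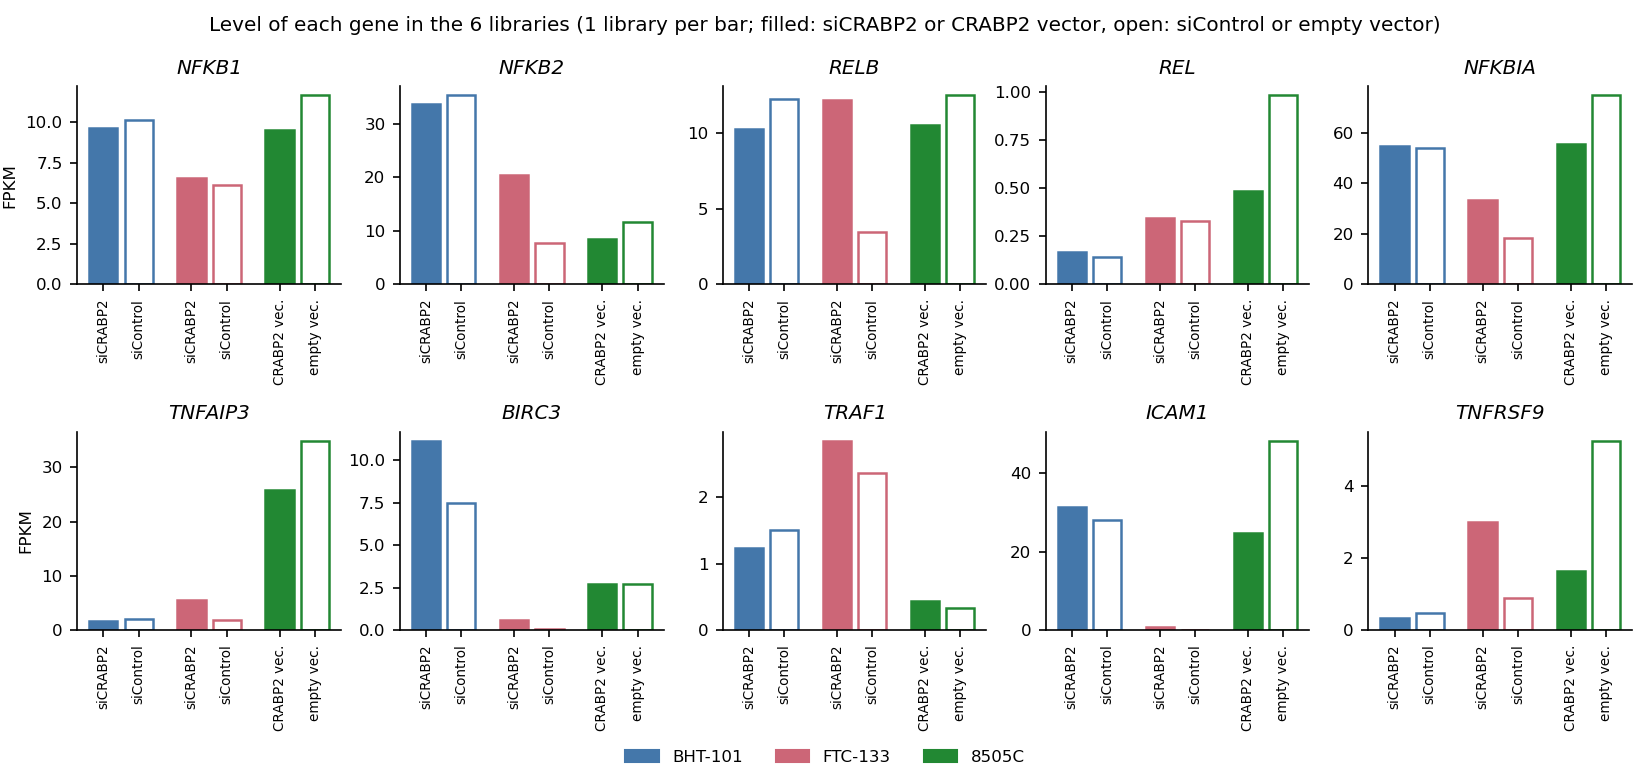
Level of each of the 10 genes in FPKM, with 1 bar per library, filled for siCRABP2 or CRABP2 vector and open for siControl or empty vector. The lowest bar of NFKB1, NFKB2, RELB, NFKBIA, BIRC3 and ICAM1 is FTC-133 siControl, and the highest bar of NFKB1, RELB, REL, NFKBIA, TNFAIP3, ICAM1 and TNFRSF9 is 8505C empty vector.

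The lines differed in how much of the set they expressed. The median of the 10 genes was 4.32 FPKM in FTC-133 siCRABP2 and 2.10 FPKM in FTC-133 siControl, 9.03 FPKM in 8505C CRABP2 vector and 11.6 FPKM in 8505C empty vector, and 9.96 FPKM in BHT-101 siCRABP2 and 8.82 FPKM in BHT-101 siControl. The FTC-133 siControl library held the lowest median and the 8505C empty vector library the highest. On the FPKM scale, which is per length, NFKBIA was the most abundant member in every library. The spread between libraries was 1.90-fold for NFKB1, the steadiest member, and 515-fold for ICAM1, the least steady, from 0.0935 FPKM in FTC-133 siControl to 48.1 FPKM in 8505C empty vector. With 1 library per condition, the order of libraries next to each other has no measured spread to be set against.

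In FTC-133 the subunit messages NFKB2 and RELB and the feedback inhibitor message TNFAIP3 were among the members that were higher in the siCRABP2 library. All 10 genes had a higher FPKM value with siCRABP2 than with siControl, by 1.04-fold to 7.42-fold, and the counting interval lay above no difference for 8 of them. NFKB1 and REL were the exceptions. Counts by interval were not worked out over all genes, so they have no background share. A gene counted as measured if it reached 1 FPKM in 1 or both libraries of the line, and as higher or lower by size if log2(FPKM + 1) differed by at least 1. All 7 measured members were above 0 in this difference, against 46.1% of the 12832 measured genes. No such share was worked out with unmeasured genes counted. Of the 7 measured members 4 were higher by size (NFKB2, RELB, TNFAIP3 and TNFRSF9), against 2.36% of measured genes. None was lower, against 2.35%, and 4.71% of measured genes passed in either direction. REL, BIRC3 and ICAM1 did not reach 1 FPKM. TNFRSF9 reached it in the siCRABP2 library only, where it was high, so its place in the count was set by the filter. With 5 FPKM required, 3 of 5 members were higher by size (NFKB2, RELB and TNFAIP3). RELB (12.2 and 3.47 FPKM with siCRABP2 and siControl) and TNFAIP3 (5.61 and 1.84 FPKM) reached 5 FPKM in the siCRABP2 library only. Their place in that count was thus set by the filter too. NFKB2 reached 5 FPKM in both libraries, at 20.4 and 7.67 FPKM. The median difference was 1.09 over the 7 measured members, which is the value of TNFRSF9, and 0.73 over all 10, against -0.04 over all measured genes.

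In 8505C the CRABP2 vector library held less of most of these messages than the empty vector library. The counting interval lay below no difference for 8 of the 10 genes and included it for BIRC3 and TRAF1. No share over all genes was worked out for counts by interval in any line. With many reads an interval can exclude no difference at a small ratio, such as 0.953-fold for NFKB2 in BHT-101. Of 8 measured members 1 was above 0 (BIRC3), against 52.8% of the 11731 measured genes. By size 1 of the 8 was lower (TNFRSF9), against 1.86% of measured genes, and none was higher, against 1.85%. In either direction 3.71% of measured genes passed. The median difference of the 8 was -0.41, against 0.02 over all measured genes. In BHT-101 the counting interval lay above no difference for BIRC3 and ICAM1, below it for NFKB2, RELB and TNFRSF9, and included it for the other 5 members. None of 8 measured members passed the size rule in either direction, against 0.589% of the 12055 measured genes higher, 0.539% lower and 1.13% in either direction. Their median was -0.07, against 0.01 over all measured genes. The FTC-133 and BHT-101 differences were not tested against each other.

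**Figure D2:**
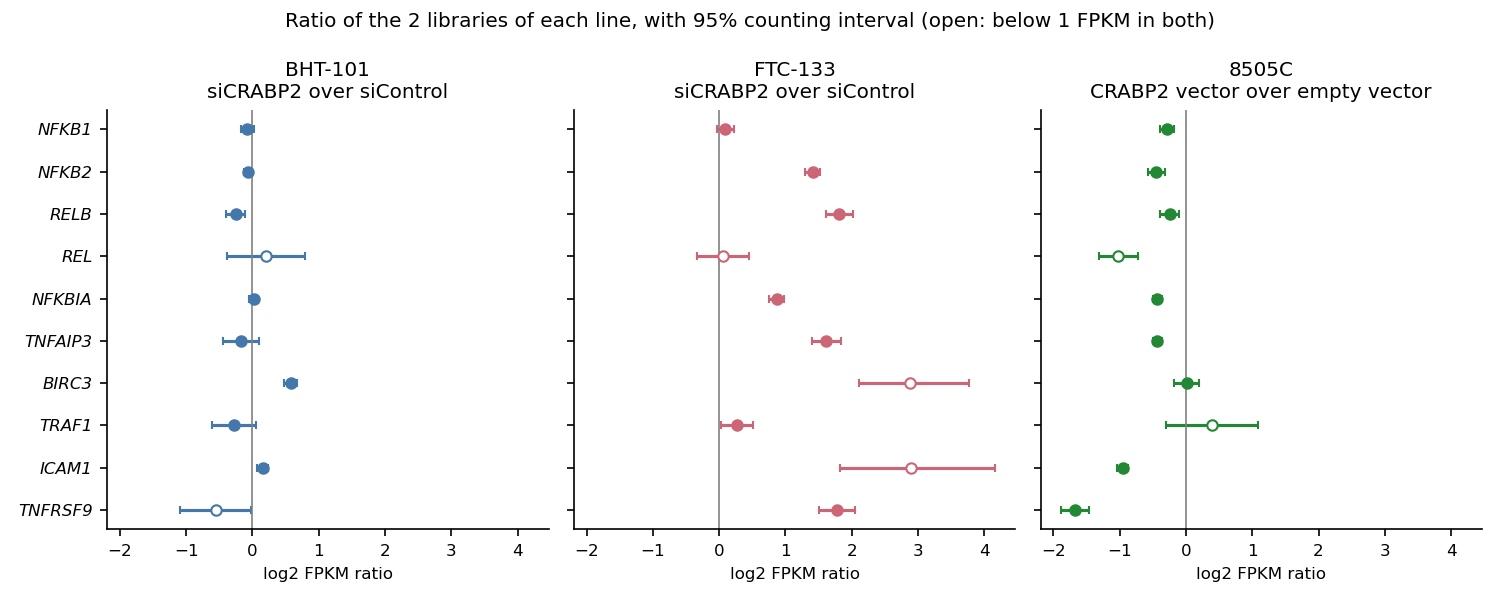
Log2 ratio of the FPKM values of the 2 libraries of each line (siCRABP2 over siControl, or CRABP2 vector over empty vector) for the 10 genes, with the 95% counting interval. In FTC-133, 8 intervals lie to the right of 0. In 8505C, 8 lie to the left of 0. In BHT-101, 5 of the 10 intervals include 0. No share over all genes was worked out for these counts.

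Among the subunit genes, RELB differed most in FTC-133. RELB (ENSG00000104856, GRCh38 chr19:45001430-45038198, plus strand), which encodes the main transactivating partner of the alternative branch, was 12.2 FPKM with siCRABP2 and 3.47 FPKM with siControl in FTC-133. It was 10.3 FPKM with siCRABP2 and 12.2 FPKM with siControl in BHT-101, and 10.5 FPKM with the CRABP2 vector and 12.5 FPKM with the empty vector in 8505C. Only FTC-133 siControl stood apart, and the siCRABP2 library of that line lay at the level of the other lines. The FTC-133 ratio was 3.51-fold (3.06 to 4.04, 1000 and 260 reads). In BHT-101 it was 0.839-fold (0.761 to 0.925) and in 8505C 0.843-fold (0.762 to 0.933).

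NFKB2 (ENSG00000077150, chr10:102394110-102402529, plus strand) encodes the precursor that the alternative branch processes. It was 20.4 FPKM with siCRABP2 and 7.67 FPKM with siControl in FTC-133, 33.6 and 35.3 FPKM with siCRABP2 and siControl in BHT-101, and 8.52 and 11.6 FPKM with the CRABP2 and the empty vector in 8505C. BHT-101 held the highest levels under either siRNA, and FTC-133 siControl the lowest. The FTC-133 ratio was 2.66-fold (2.46 to 2.87), the 8505C ratio 0.735-fold (0.673 to 0.801) and the BHT-101 ratio 0.953-fold (0.912 to 0.995).

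NFKB1 (ENSG00000109320, chr4:102501329-102617302, plus strand), the precursor gene of the classical branch, was nearly level. It was 6.54 FPKM with siCRABP2 and 6.13 FPKM with siControl in FTC-133, 9.66 and 10.2 FPKM with siCRABP2 and siControl in BHT-101, and 9.54 FPKM with the CRABP2 vector and 11.7 FPKM with the empty vector in 8505C. Both FTC-133 libraries lay below the other 4. The ratio was 1.07-fold in FTC-133 (0.978 to 1.16), 0.949-fold in BHT-101 (0.884 to 1.02) and 0.818-fold in 8505C (0.761 to 0.879).

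REL (ENSG00000162924, chr2:60881521-60931610, plus strand), which encodes c-Rel, a subunit best known in lymphocytes, was the lowest subunit message everywhere. It was 0.344 and 0.330 FPKM in FTC-133 siCRABP2 and siControl, 0.167 and 0.144 FPKM in BHT-101 siCRABP2 and siControl, and 0.485 and 0.980 FPKM in 8505C CRABP2 vector and empty vector. The 8505C ratio was 0.495-fold (0.402 to 0.606, 141 and 295 reads), and the intervals of the siRNA lines included no difference. In the annotation, 43.3% of the REL exon bases also belong to AC010733.2, a noncoding gene on the same strand that was listed at 0 in all 6 libraries, so the level of REL is uncertain.

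Set beside RELA, which encodes the main transactivating subunit of the classical branch and is not a member of the set, these values gave the make-up of subunit messages. RELA was 11.6 FPKM with siCRABP2 and 9.38 FPKM with siControl in FTC-133 (1.23-fold, 1.15 to 1.33), 9.59 and 11.2 FPKM with siCRABP2 and siControl in BHT-101, and 19.7 and 20.6 FPKM with the CRABP2 and the empty vector in 8505C. Of the summed FPKM of the 5 subunit genes, NFKB2 held 53.1% with siCRABP2 and 51.1% with siControl in BHT-101, and RELA held 40.4% with the CRABP2 vector and 36.0% with the empty vector in 8505C. In each of these lines the same subunit gene held the largest share in both libraries.

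In FTC-133 the largest share belonged to NFKB2 with siCRABP2 and to RELA with siControl. RELB held 23.9% of the sum with siCRABP2 and 12.9% with siControl, and NFKB2 held 39.9% with siCRABP2 and 28.4% with siControl. RELA held 22.7% with siCRABP2 and 34.8% with siControl, and NFKB1 held 12.8% with siCRABP2 and 22.7% with siControl. The sum itself was 51.0 FPKM with siCRABP2 and 27.0 FPKM with siControl, so the lower shares of RELA and NFKB1 stood beside FPKM values that were not lower. REL stayed at 1.71% or less of the sum in all 6 libraries.

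**Figure D3:**
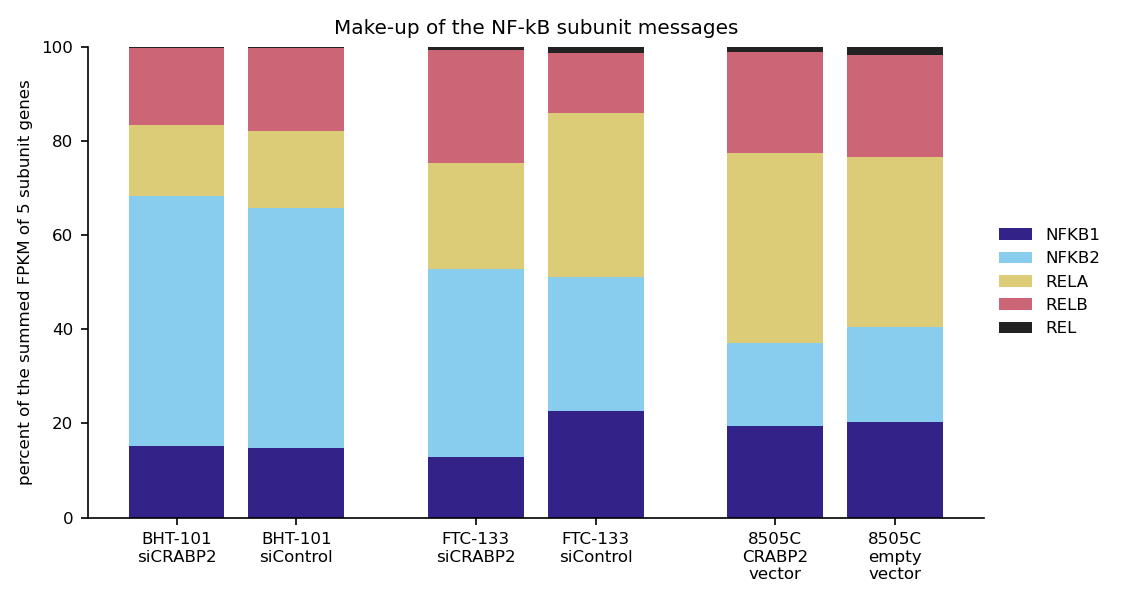
Share of each subunit gene in the summed FPKM of NFKB1, NFKB2, RELA, RELB and REL, in percent, for each library. NFKB2 is the widest band in both BHT-101 libraries and in FTC-133 siCRABP2, and RELA is the widest in FTC-133 siControl and both 8505C libraries.

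Both feedback inhibitor genes, like RELB, were higher with siCRABP2 in FTC-133. NFKBIA (ENSG00000100906, chr14:35401511-35404749, minus strand) encodes IκBα, which removes dimers from DNA. It was 33.3 FPKM with siCRABP2 and 18.3 FPKM with siControl in FTC-133, 54.7 and 54.1 FPKM with siCRABP2 and siControl in BHT-101, and 55.3 FPKM with the CRABP2 vector and 74.7 FPKM with the empty vector in 8505C. The FTC-133 libraries were the lowest of the 6 and the empty vector library the highest. The ratio was 1.82-fold in FTC-133 (1.69 to 1.96), 0.740-fold in 8505C (0.706 to 0.777) and 1.01-fold in BHT-101 (0.963 to 1.06).

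TNFAIP3 (ENSG00000118503, chr6:137867188-137883312, plus strand) encodes A20, a ubiquitin-editing enzyme that dampens signalling from tumour necrosis factor receptors. It was 5.61 FPKM with siCRABP2 and 1.84 FPKM with siControl in FTC-133, 1.76 and 1.99 FPKM with siCRABP2 and siControl in BHT-101, and 25.8 FPKM with the CRABP2 vector and 34.8 FPKM with the empty vector in 8505C. Both 8505C libraries stood above the other lines. The ratio was 3.06-fold in FTC-133 (2.64 to 3.56), 0.743-fold in 8505C (0.708 to 0.780) and 0.885-fold in BHT-101 (0.734 to 1.07). Its antisense neighbour AL357060.1 shares 1.88% of the exon bases and was at 1.82 FPKM or less.

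Of the signalling genes, BIRC3 was the only member that the siCRABP2 library held more of by over 1.4-fold in BHT-101. BIRC3 (ENSG00000023445, chr11:102317450-102339403, plus strand) encodes a ubiquitin ligase that joins tumour necrosis factor receptor complexes and restrains the alternative branch. It was 11.1 FPKM with siCRABP2 and 7.46 FPKM with siControl in BHT-101 (1.49-fold, 1.39 to 1.59). In FTC-133 it was 0.592 FPKM with siCRABP2 and 0.0804 FPKM with siControl, from 121 and 15 reads (7.37-fold, 4.29 to 13.6), and in 8505C it was 2.72 and 2.70 FPKM with the CRABP2 and the empty vector (1.01-fold, 0.883 to 1.15). The large FTC-133 ratio thus belonged to a message below 1 FPKM in both libraries, with a difference of 0.56 on log2(FPKM + 1), against 0.52 in BHT-101. With a pseudocount of 0.1 these differences were 1.94 in FTC-133 and 0.57 in BHT-101.

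TRAF1 (ENSG00000056558, chr9:120902393-120929173, minus strand), an adaptor that binds the BIRC3 product, was low in all libraries and differed little. It was 2.84 FPKM with siCRABP2 and 2.36 FPKM with siControl in FTC-133, 1.24 and 1.502 FPKM with siCRABP2 and siControl in BHT-101, and 0.435 FPKM with the CRABP2 vector and 0.332 FPKM with the empty vector in 8505C. FTC-133 held the most of this message and 8505C the least. The ratio was 1.202-fold in FTC-133 (1.02 to 1.42), and the intervals included no difference in BHT-101 (0.653 to 1.04) and in 8505C (0.815 to 2.12).

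Of the surface genes, ICAM1 had the widest spread over the 6 libraries of any member. ICAM1 (ENSG00000090339, chr19:10270835-10286615, plus strand) encodes an adhesion molecule that binds leukocyte integrins. It was 0.693 FPKM with siCRABP2 and 0.0935 FPKM with siControl in FTC-133, 31.3 and 28.1 FPKM with siCRABP2 and siControl in BHT-101, and 24.9 FPKM with the CRABP2 vector and 48.1 FPKM with the empty vector in 8505C. FTC-133 was nearly without the message. Its ratio there was 7.42-fold (3.55 to 17.9) and rested on 65 and 8 reads. The 8505C ratio was 0.517-fold (0.489 to 0.546, 1894 and 3791 reads), a difference of -0.92 on log2(FPKM + 1), just short of the size rule. The BHT-101 ratio was 1.11-fold (1.05 to 1.18). Antisense genes listed at or near 0 share 23.6% of its exon bases. Whether the counting used strand is not stated, so its reads and theirs may not be told apart.

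TNFRSF9 (ENSG00000049249, chr1:7915894-7943165, minus strand), a costimulatory receptor best known on activated T cells, was the member that passed the size rule in both FTC-133 and 8505C. It was 3.02 FPKM with siCRABP2 and 0.884 FPKM with siControl in FTC-133 (3.42-fold, 2.83 to 4.15). With the CRABP2 vector it was 1.65 FPKM, against 5.25 FPKM with the empty vector, in 8505C (0.314-fold, 0.270 to 0.365). In BHT-101 it was 0.332 FPKM with siCRABP2 and 0.486 FPKM with siControl, from 47 and 86 reads (0.684-fold, 0.469 to 0.987). Its ligand gene TNFSF9 was 85.6 FPKM with siCRABP2 and 84.0 FPKM with siControl in FTC-133 (1.02-fold, 0.972 to 1.07), 37.2 and 41.6 FPKM with siCRABP2 and siControl in BHT-101, and 1.47 and 1.10 FPKM with the CRABP2 and the empty vector in 8505C.

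To ask which differences ran through several lines, limma was fitted to log2(FPKM + 1) of all genes with the cell line as a block. Over the 4 siRNA libraries 8 members could be tested, and 0 passed an adjusted p of 0.05, as did 0 of all 12953 genes tested (0%). CRABP2 itself, the target of the siRNA, did not pass either, at -2.14 (SE 0.42, limma adjusted p = 0.792). A count of 0 in this fit therefore cannot be read as no shared difference. At an unadjusted p under 0.05 the fit held 1 member, BIRC3, against 4.16% of genes, or 2.42% on the higher side (539 and 314 genes). BIRC3 had a difference of 0.54 (SE 0.17) for siCRABP2 against siControl, with the higher value in both lines, and a limma adjusted p = 0.869. It entered this fit through BHT-101 alone, since it was below 1 FPKM in both FTC-133 libraries, and the estimate was 1.25 with a pseudocount of 0.1. RELB had a larger estimate of 0.66 but an SE of 0.40 (limma adjusted p = 0.869), with differences of 1.56 in FTC-133 and -0.23 in BHT-101. This fit left 1 residual degree of freedom per gene.

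Over all 6 libraries the lower CRABP2 arm (siCRABP2 and empty vector) was set against the higher arm (siControl and CRABP2 vector), although siRNA and vector are different manipulations. Of 9 members tested 0 passed an adjusted p of 0.05, as did 0 of 11628 genes (0%). Here too CRABP2 itself did not pass, at -2.96 (SE 0.54, limma adjusted p = 0.999), so the count of 0 does not show that no difference was shared. At an unadjusted p under 0.05 there were 2 members, TNFRSF9 and ICAM1, both on the higher side, against 3.2% of genes, or 1.66% on that side (372 and 193 genes). ICAM1 was higher in the lower arm of all 3 lines, by 0.57 (SE 0.18, limma adjusted p = 0.999), and TNFRSF9 was higher in 2 of 3, by 0.72 (SE 0.27, limma adjusted p = 0.999). In FTC-133, ICAM1 was below 1 FPKM in both libraries, on 65 and 8 reads. Its estimate over the 3 lines was 1.05 with a pseudocount of 0.1. TNFRSF9 reached 1 FPKM in the 3 libraries needed only with FTC-133 siCRABP2 counted, where it was high at 3.02 FPKM. It was 0.884 FPKM in FTC-133 siControl, and 0.486 and 0.332 FPKM in BHT-101 siControl and siCRABP2. The place of TNFRSF9 in this fit was thus set by the filter. Without the filter its estimate was again 0.72, with a limma unadjusted p = 0.094. NFKBIA had an estimate of 0.42, although its BHT-101 difference of 0.02 had a counting interval that included 0 and turned to -0.006 under quantile normalization, and NFKB2 one of 0.55 with the same sign in 2 of 3. Without FTC-133 the estimate was -0.0029 for RELB, against 0.52 with it, 0.17 for NFKB2, against 0.55, 0.15 for TNFAIP3, against 0.51, and 0.22 for NFKBIA, against 0.42. Without BHT-101 the estimates were larger, at 0.89 for RELB, 0.85 for NFKB2, 0.82 for TNFAIP3, 0.63 for NFKBIA and 1.17 for TNFRSF9. In limma without BHT-101, 6 members had an unadjusted p under 0.05, against 3.79% of 12718 genes (482 genes, 214 on the higher side). Without FTC-133 1 member did, ICAM1, against 4.09% of 12608 genes (516 genes, 259 on the higher side). No member passed the adjusted threshold with either line left out.

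Other genes of the pathway were grouped by role, with the members left out. Among IκB family genes in FTC-133, 4 of 5 measured genes were above 0, with a median of 0.77, and in 8505C 4 of 4 were below 0, with a median of -0.43. In BHT-101 3 of 5 were above 0, with a median of 0.03. Of all measured genes, 46.1% were above 0 in FTC-133, 52.8% in 8505C and 53.3% in BHT-101. NFKBIZ, an inducible nuclear IκB protein that coactivates a subset of targets, was 11.6 FPKM with siCRABP2 and 5.10 FPKM with siControl in FTC-133 (2.28-fold, 2.09 to 2.49), and 15.8 FPKM with the CRABP2 vector and 28.6 FPKM with the empty vector in 8505C (0.554-fold, 0.525 to 0.585). BCL3, a nuclear partner of the NFKB1 and NFKB2 products, was 23.9 and 12.5 FPKM in FTC-133 siCRABP2 and siControl, and the IκB gene NFKBIE was 8.24 and 4.40 FPKM in these libraries.

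Of 15 measured genes for the IKK complex and upstream kinases, 1 was higher by size in FTC-133, against 2.36% of all measured genes, and the median was -0.10. That gene was IRAK2, which encodes a kinase of the interleukin-1 receptor pathway, at 12.2 FPKM with siCRABP2 and 3.57 FPKM with siControl (3.42-fold, 3.01 to 3.90). The IKK genes themselves did not pass the size rule. CHUK had a ratio of 0.967-fold (0.891 to 1.05), IKBKG one of 1.06-fold (0.906 to 1.24) and IKBKB one of 0.795-fold (0.728 to 0.867). MAP3K14, the kinase that starts the alternative branch, was 1.84 FPKM with siCRABP2 and 2.42 FPKM with siControl in FTC-133 (0.763-fold, 0.651 to 0.894), the opposite direction to RELB and NFKB2. It was also lower in BHT-101 siCRABP2 (0.828-fold, 0.733 to 0.934) and 8505C CRABP2 vector (0.671-fold, 0.564 to 0.797).

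Of 5 measured ligands in FTC-133, IL1A, IL1B and TNF were higher by size with siCRABP2, against 2.36% of all measured genes. The median of the 5 was 1.11, which is the value of TNF, and over all 12 listed ligands it was 0.02. IL1A, IL1B and TNF each reached 1 FPKM in the siCRABP2 library only, where they were high. Their place in the count and in the median was thus set by the filter. IL1A was 6.48 FPKM with siCRABP2 and 0.531 FPKM with siControl in FTC-133. IL1B was 9.01 and 0.520 FPKM in these libraries. In 8505C 3 of 5 measured ligands were above 0, against 52.8% of all measured genes, with a median of 0.23. In 8505C, IL1A and IL1B were lower by size with the CRABP2 vector, at 83.5 and 163 FPKM against 187 and 355 FPKM with the empty vector. Of all measured genes 1.86% were lower by size there. TNF, named after its values were seen, was 1.73 FPKM with siCRABP2 and 0.264 FPKM with siControl in FTC-133, from 79 and 11 reads (6.56-fold, 3.47 to 13.7), and did not reach 1 FPKM in the other lines. Among receptor and adaptor genes 0 of 15 measured genes passed the size rule in FTC-133, against 4.71% of all measured genes, and the median was 0.14. In 8505C the receptor gene TNFRSF1B was 4.67 FPKM with the CRABP2 vector and 11.9 FPKM with the empty vector (0.393-fold, 0.349 to 0.442), while TNFRSF1A was 45.9 FPKM with the CRABP2 vector and 44.4 FPKM with the empty vector.

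For ubiquitin editing, FTC-133 had 9 of 10 measured genes above 0, against 46.1% of all measured genes, and a median of 0.32. In this list 8505C had 6 of 10 above 0, against 52.8%, and BHT-101 had 3 of 10, against 53.3%. ZC3H12A, an RNase that degrades inflammatory messages, was the only one past the size rule in FTC-133, at 22.4 FPKM with siCRABP2 and 5.90 FPKM with siControl (3.80-fold, 3.42 to 4.21). In 8505C it was 7.15 FPKM with the CRABP2 vector and 12.8 FPKM with the empty vector (0.559-fold, 0.499 to 0.624). TNIP1, which encodes a partner of A20, was 23.1 and 12.6 FPKM in FTC-133 siCRABP2 and siControl, and 44.6 and 43.3 FPKM in 8505C CRABP2 vector and empty vector.

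Of 17 other measured textbook targets, 14 were above 0 in FTC-133 and 5 passed the size rule (SOD2, BCL2A1, IER3, RIPK2 and LIF), with a median of 0.69. BCL2A1 reached 1 FPKM in the siCRABP2 library only, where it was high, so its place in these counts was set by the filter. Over all measured genes 46.1% were above 0 in FTC-133, 52.8% in 8505C and 53.3% in BHT-101. In FTC-133, 2.36% of all measured genes were higher by size. SOD2, the mitochondrial superoxide dismutase, was 33.1 FPKM with siCRABP2 and 6.03 FPKM with siControl (5.49-fold, 5.26 to 5.74), although another gene identifier carries the same symbol, so its reads are uncertain. IER3, an early response gene, was 69.9 FPKM with siCRABP2 and 29.6 FPKM with siControl (2.36-fold, 2.19 to 2.54). In 8505C 10 of 15 were below 0 and none passed the size rule. SOD2 was 117 FPKM with the CRABP2 vector and 166 FPKM with the empty vector there, whereas IER3 was 211 and 199 FPKM with the CRABP2 and the empty vector. In BHT-101 8 of 16 were above 0, with a median of 0.00166.

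**Figure D4:**
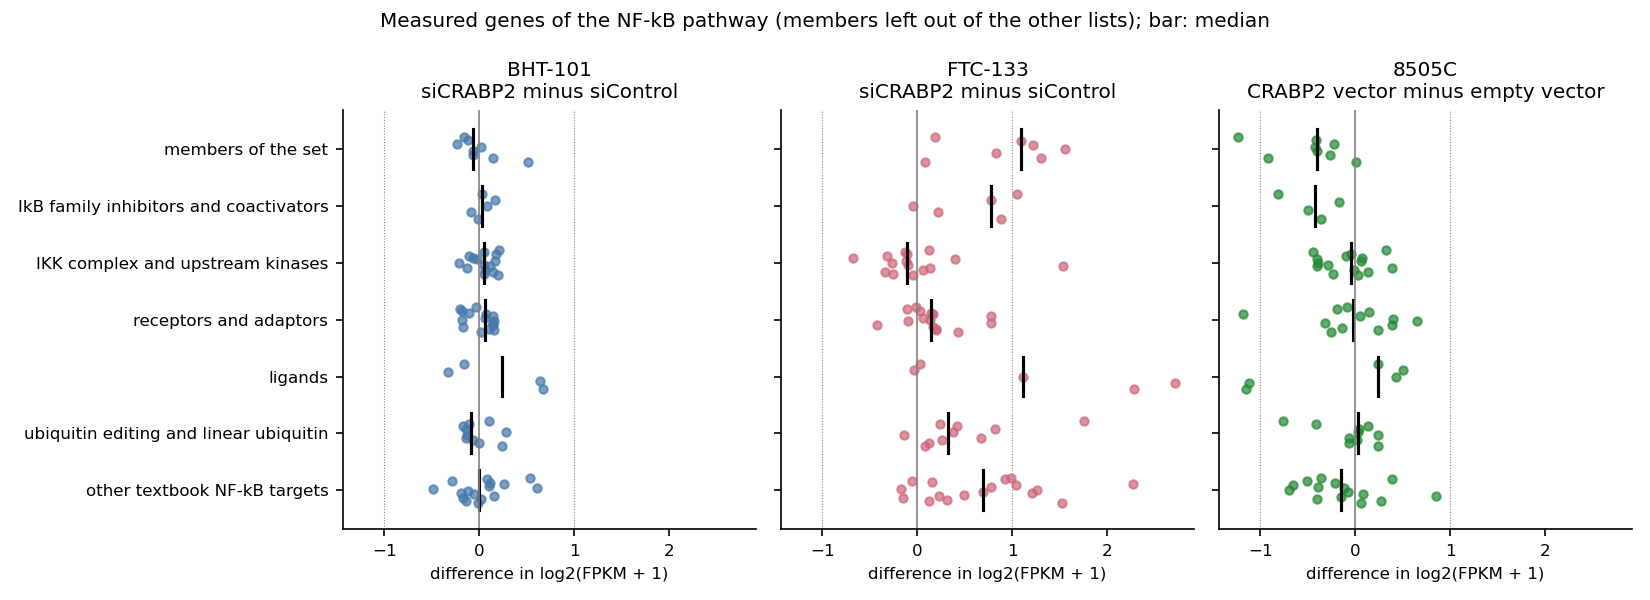
Difference in log2(FPKM + 1) between the 2 libraries of each line for measured genes, by role in the pathway, with a bar at the median and dotted lines at the size rule of 1. In FTC-133 the members, IκB genes, ligands and other targets have medians of 1.09, 0.77, 1.11 (5 of 12 ligands measured) and 0.69, whereas kinases lie at -0.10. TNFRSF9 among the members, the ligands IL1A, IL1B and TNF, and BCL2A1 among the other targets were measured there through the siCRABP2 library alone.

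The genes most like the set were found from the mean of the members' standardized log2(FPKM + 1) over the 6 libraries. That mean was lowest in FTC-133 siControl (-0.95) and highest in 8505C empty vector (0.66). Among 8616 other protein-coding genes reaching 5 FPKM in any library, NFKBIZ was closest, with a Pearson r of 0.996 over the 6 libraries. LAMB3, a laminin chain, was at 0.985, PPP1R15B, a phosphatase regulator of the stress response, at 0.970, and FOXK1, a forkhead transcription factor, at 0.969. These are among the highest values of a large search over 6 points that share their lines and libraries, and they describe likeness only.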

How the data were processed

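RNA sequencing values were analysed for 6 libraries, 1 per group, grouped by sample title. The deposited values are FPKM, which the authors scaled by exon length and depth. The submitters' processing notes name FastQC, Trimmomatic 0.38, featureCounts 2.0.0 and the build GRCh38. The aligner, the annotation release and the strand setting are not given there or elsewhere in the sources used.

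Symbols, positions and exon lengths came from GENCODE release 29 (GRCh38), which may differ from the authors' annotation. FPKM multiplied by length fell on whole multiples of a step per library, which gave the read totals. At a tolerance of 0.01 reads, 69.7% to 71.5% of genes above 0 were whole. For the members, 4 gave whole reads at the release 29 length and all 10 at the nearest length that did so in the 6 libraries. Ratios are of FPKM, with exact 95% intervals from these reads.

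Differences used log2(FPKM + 1), which understates low genes. Genes needed 1 FPKM in 1 or both libraries of a line. The fits across lines, by limma 3.58.1 under R 4.3.3, held the cell line as a block and a variance trend, were adjusted by Benjamini-Hochberg, and used genes with 1 FPKM in at least 2 of the 4 siRNA libraries or 3 of all 6. The pairing comes from the line named in the labels. Methods were tested on simulated data. Promoter windows came from RefSeq tables (GRCh38.p14). The members, lists and tests were chosen with earlier results of these data known. Named were all members, RELA, the IKK genes, MAP3K14 and TNFSF9, and up to 4 other genes per list and line with the largest difference among those at 5 FPKM or more. TNF and BCL2A1 were named after their values were seen. Of the named genes, those described are a selection, and 1 of the genes most like the members is not reported here. Alternatives were the pseudocount, the filter, scaling, a GC trend, the block, the variance trend and leaving out a line.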

Additional observations from a re-analysis of the deposited data

Results flagged for a closer look

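The siCRABP2 difference had opposite signs in FTC-133 and BHT-101 for 4 members that passed the size rule in FTC-133. On log2(FPKM + 1), the FTC-133 difference exceeded that of BHT-101 by 1.37 for NFKB2 (1.30 in FTC-133 and -0.07 in BHT-101), by 1.79 for RELB (1.56 in FTC-133 and -0.23 in BHT-101), by 1.34 for TNFAIP3 (1.22 in FTC-133 and -0.11 in BHT-101) and by 1.25 for TNFRSF9 (1.09 in FTC-133 and -0.16 in BHT-101). The BHT-101 sign of NFKB2 turned with the GC trend removed, to 0.0012. With 1 library per condition these differences between lines were not tested. The knockdown also differed, with a CRABP2 ratio of 0.0190-fold in FTC-133 (0.00612 to 0.0450) and 0.418-fold in BHT-101 (0.364 to 0.480). CRABP2 was 11.4 FPKM in BHT-101 siCRABP2 and 8.94 FPKM in FTC-133 siControl. The part of this in the differences between lines was not tested. The counting interval in BHT-101 lay below no difference for RELB, NFKB2 and TNFRSF9 and included it for TNFAIP3. TNFRSF9 rested there on 47 reads with siCRABP2 and 86 reads with siControl.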

How the results depend on the processing

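The number of members past the size rule stayed at 0 in BHT-101 and at 1 in 8505C under all 7 alternatives, and at 4 in FTC-133 except for 3 of 5 members when 5 FPKM was required. Of these 3, RELB and TNFAIP3 reached 5 FPKM in the siCRABP2 library only, where they were high. TNFRSF9 in 8505C reached it in the empty vector library only, at 5.25 FPKM. The FTC-133 median moved from 1.09 to 1.35 and 1.40 with a pseudocount of 0.5 and 0.1, and to 0.73 without the filter. Genes past the size rule numbered 302, 1278 and 895 in BHT-101, FTC-133 and 8505C with a pseudocount of 0.1, and 34, 323 and 208 when 5 FPKM was required, against 136, 605 and 435. No member difference that passed the size rule changed sign. Others did in 3 of 70 values in BHT-101 (NFKBIA to -0.006 under quantile normalization, and NFKB2 to 0.0012 and REL to -0.059 with the GC trend removed) and in 3 of 70 in 8505C (all BIRC3). In limma, the number of genes passing stayed at 0 under every alternative except leaving out a line of the 3, where it ranged from 0 to 10, with no member among them. TRAF1 turned to -0.001 over the knockdown lines with a pseudocount of 0.1, and over all 3 lines its -0.03 ranged from -0.133 to 0.0423 with a line left out (0.016 without 8505C). RELB ranged from -0.0029 without FTC-133 to 0.89 without BHT-101. Without the cell line as a block, 22 and 4 genes had an unadjusted p under 0.05 in the 4-library and 6-library fits, against 539 and 372, and no call changed. The causes were not tested. Depth limits BIRC3 and ICAM1 in FTC-133, TRAF1 in 8505C, TNFRSF9 in BHT-101 and REL in BHT-101, which were below 1 FPKM in both libraries and had under 100 reads in 1 or both.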

Other observations

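TRADD, which encodes the adaptor that couples the tumour necrosis factor receptor to NF-κB signalling, was listed at 0 in both 8505C libraries. It was 15.8 FPKM with siCRABP2 and 14.0 FPKM with siControl in FTC-133, and 24.1 and 22.9 FPKM with siCRABP2 and siControl in BHT-101. The adaptor genes TRAF2 and TRAF6 were detected in 8505C, at 3.08 and 4.97 FPKM with the CRABP2 vector and 2.70 and 5.36 FPKM with the empty vector. The tumour necrosis factor relative TNFSF15 was 96.0 FPKM with the CRABP2 vector and 67.3 FPKM with the empty vector in 8505C, against 4.01 FPKM or less in the other lines. It ran opposite to IL1A and IL1B between the same libraries.

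In BHT-101 the death ligand gene TNFSF10 was 11.005 FPKM with siCRABP2 and 6.53 FPKM with siControl, and the osteoclast factor gene TNFSF11 was 6.97 and 4.12 FPKM with siCRABP2 and siControl. The adhesion gene VCAM1 was 27.2 and 18.4 FPKM with siCRABP2 and siControl in BHT-101. In BHT-101 these genes were short of the size rule, with differences of 0.67, 0.64 and 0.54 on log2(FPKM + 1), beside 0.52 for BIRC3.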
